A study of Rattus norvegicus with 30 samples.

Results

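Cd24, Crip1 and Mcub are 3 genes whose signals were close to the dim end of the array in primary rat hepatocytes in water and far above it in the same cells with 10 mM sodium valproate. They were picked for those large rises, so their values at 10 mM against water are given as a description, with no test. The series matrix holds 1 probeset annotated with each symbol, 1369953_a_at for Cd24, 1372256_at for Crip1 and 1385426_at for Mcub, out of 14217 genes with a probeset that carries 1 symbol. Frozen male Sprague Dawley hepatocytes from 1 supplier were plated on collagen under Matrigel and dosed on day 3 of culture with 10 mM valproate, 0.5 mM valproate or water, the vehicle, and RNA was taken 24 h or 48 h later. Each of the 6 dose-by-time groups had 5 wells, which the labels call independent cultures, and each culture was hybridised to its own array. Neither the number of donor animals nor the plate of a well is given in the sources used here, and the spread is that between cultures.

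Cd24 encodes a small, heavily glycosylated protein held in the outer membrane leaflet by a glycosylphosphatidylinositol (GPI) anchor. In liver it is known from biliary and progenitor cells rather than from mature hepatocytes, and it is also made by many leukocytes. Crip1, cysteine-rich protein 1, is a very small zinc-binding protein built around a single LIM domain, first described in the intestine and also made by immune cells. Mcub encodes a paralogue of Mcu, the pore-forming subunit of the mitochondrial calcium uniporter. It joins the pore complex and lowers calcium uptake into the mitochondrial matrix. Valproate, an antiepileptic drug, is itself a short branched fatty acid, and it inhibits the deacetylases that strip acetyl groups from histones.

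The sequences just before the annotated gene starts are shown because the 3 genes rose together from low levels and their start regions can be compared directly. Each run is the 250 bases before a start in RefSeq's rat table (build GRCr8), written 5′ to 3′ on the gene's own strand, and capitals mark every GC box (GGGCGG on either strand). All 3 genes matched the table by symbol, Crip1 with 2 starts, and which of these the hepatocytes use is not known from these data.
Cd24, chr20:48656227-48656476, plus strand: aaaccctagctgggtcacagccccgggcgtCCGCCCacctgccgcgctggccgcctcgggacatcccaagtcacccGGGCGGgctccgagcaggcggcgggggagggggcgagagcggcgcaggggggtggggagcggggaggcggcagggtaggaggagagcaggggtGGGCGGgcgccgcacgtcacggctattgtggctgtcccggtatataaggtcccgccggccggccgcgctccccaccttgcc
Crip1 first start, chr6:138047551-138047800, plus strand: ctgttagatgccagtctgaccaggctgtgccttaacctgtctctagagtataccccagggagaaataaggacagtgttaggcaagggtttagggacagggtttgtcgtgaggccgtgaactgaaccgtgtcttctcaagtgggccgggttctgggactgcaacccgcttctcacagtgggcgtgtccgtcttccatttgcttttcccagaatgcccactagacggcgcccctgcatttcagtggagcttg
Crip1 second start, chr6:138053618-138053867, plus strand: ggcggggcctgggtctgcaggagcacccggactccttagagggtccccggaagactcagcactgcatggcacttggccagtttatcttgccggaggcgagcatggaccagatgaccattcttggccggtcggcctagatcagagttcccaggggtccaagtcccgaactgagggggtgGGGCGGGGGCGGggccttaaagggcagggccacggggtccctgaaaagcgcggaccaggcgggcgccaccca
Mcub, chr2:221223815-221224064, minus strand: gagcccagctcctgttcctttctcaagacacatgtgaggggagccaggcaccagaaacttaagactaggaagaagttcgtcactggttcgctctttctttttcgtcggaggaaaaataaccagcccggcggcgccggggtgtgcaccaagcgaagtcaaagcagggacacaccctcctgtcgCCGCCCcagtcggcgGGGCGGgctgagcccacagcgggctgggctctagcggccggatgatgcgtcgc

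The Cd24 window was the richest of the 4 in CpG dinucleotides, with 28 of them and 75.6% G and C. It held 3 GC boxes, whose first bases lie 220, 174 and 81 bases before the start. The Mcub window held 19 CpG and 2 GC boxes, at 68 and 53 bases. For Crip1, the second start had 15 CpG and 2 adjoining GC boxes at 72 and 66 bases, and the first start had 9 CpG and no GC box. Across the 33469 promoter windows of the same length in the table, the median was 5 CpG and 51.2% G and C, and 6.79% of windows had at least as many CpG as Cd24, 18.4% as many as Mcub, and 25.8% and 38.5% as many as the second and first Crip1 starts. GGGCGG on either strand was found in 30.5% of all windows. None of the 4 windows held CCAAT on either strand, found in 34.0% of all windows, or TATAAA on either strand, found in 12.9%. The Cd24 window held TATATA, searched on both strands, 41 bases before the start, as did 5.45% of all windows at some position. These are matches of letters and not measured binding sites.

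The Cd24 signal, on the linear scale of the deposited values, stood apart at the highest dose at both times. At 24 h the 5 cultures gave 114, 93.2, 126, 29.6 and 58.6 in water, 36.7, 153, 26.8, 80.7 and 124 at 0.5 mM, and 3212, 3295, 3629.9, 4229 and 3615 at 10 mM. At 48 h they gave 174, 198, 71.9, 143 and 193 in water, 177, 299, 256, 175 and 172 at 0.5 mM, and 4436, 3117, 4580.4, 4733 and 4739 at 10 mM. The lowest of the 10 signals at 10 mM was 3117, and the highest of the 20 others was 298.5. Cd24 averaged 3596 ± 400.1 at 10 mM against 84.3 ± 39.9 in water at 24 h (SD, n = 5 each), a ratio of 42.7. At 48 h it averaged 4321 ± 685 at 10 mM against 156 ± 51.8 in water, a ratio of 27.7. With each signal under the 30th percentile of its array raised to that percentile, as a bound for dim water signals, Cd24 was at least 23.8-fold higher at 24 h and at least 24.0-fold higher at 48 h.

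For Crip1, the 10 mM cultures were high at 24 h and higher still at 48 h. At 24 h the cultures gave 49.7, 48.4, 50.0, 21.2 and 59.9 in water, 70.4, 61.3, 90.5, 185 and 79.6 at 0.5 mM, and 2143, 1936, 1637, 1645 and 1595 at 10 mM. At 48 h they gave 54.4, 50.0, 61.8, 56.1 and 56.4 in water, 70.7, 70.6, 43.0, 56.5 and 63.0 at 0.5 mM, and 5934, 4349.7, 6073, 5478 and 6790.2 at 10 mM. No array without 10 mM valproate exceeded 185.1, and no array with it was under 1595. The mean was 1791 ± 239 at 10 mM against 45.8 ± 14.5 in water at 24 h, a ratio of 39.1. At 48 h the mean was 5725 ± 902 at 10 mM against 55.7 ± 4.3 in water, a ratio of 103. The same bound on the water signals, all of which it raised, left at least 11.8-fold at 24 h and at least 35.8-fold at 48 h.

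Mcub had the smallest of the 3 rises. At 24 h the cultures gave 157, 159, 35.5, 9.6 and 123 in water, 13.5, 63.9, 103, 37.9 and 195 at 0.5 mM, and 1309, 1275, 1483, 1299.6 and 1182 at 10 mM. At 48 h they gave 119, 104, 116, 69.3 and 99.5 in water, 17.2, 80.2, 28.4, 35.9 and 37.1 at 0.5 mM, and 1570.3, 1100.1, 1088, 1175 and 1275 at 10 mM. The lowest signal at 10 mM was 1088, and the highest elsewhere was 194.5. Mcub averaged 1309.6 ± 109 at 10 mM against 96.8 ± 69.9 in water at 24 h, a ratio of 13.5. At 48 h it averaged 1242 ± 198 at 10 mM against 102 ± 19.8 in water, a ratio of 12.2. With dim signals raised, the rise was at least 8.5-fold at 24 h and at least 7.8-fold at 48 h. In water and at 0.5 mM the single values spanned more than a factor of 10 at 24 h, where the readings are dim.

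**Figure D1:**
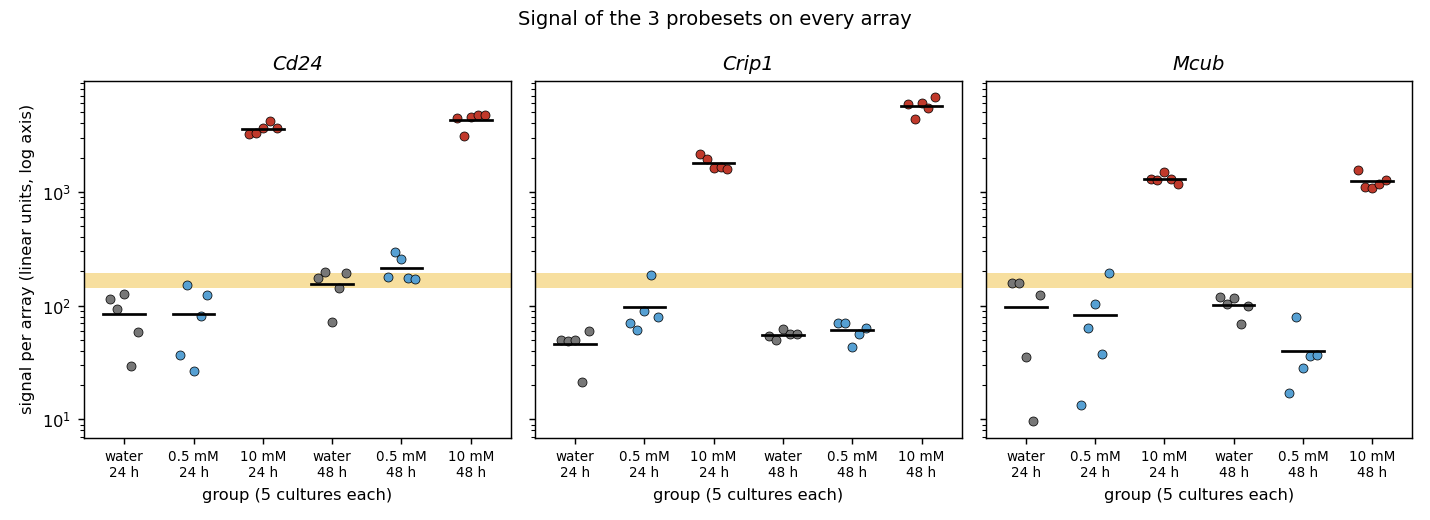
Signal of the Cd24, Crip1 and Mcub probesets on each of the 30 arrays (vertical log axis, linear signal units), by dose within each time; points are cultures, black lines are group means of 5, and the band spans the 30th percentile of the arrays, 144 to 194. All 10 cultures at 10 mM lie above the band for each gene, while most others lie in or under it.

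The same values on the log2(signal + 16) scale were used to place the 3 rises among all genes. The 10 mM minus water difference was 5.28 at 24 h and 4.71 at 48 h for Cd24, 4.90 and 6.31 for Crip1, and 3.90 and 3.42 for Mcub. By size of rise among the 21729 probesets tested, Cd24 was number 3 at 24 h and number 7 at 48 h, Crip1 number 5 and number 2, and Mcub number 12 and number 25. Both the size and the place of a rise depend on how dim water signals are treated. With signals under the 30th percentile of their array raised to it, the differences were 4.43 and 4.45 for Cd24, 3.42 and 5.02 for Crip1, and 2.95 and 2.83 for Mcub, and the places were 4 and 5, 14 and 3, and 31 and 39. With a pseudocount of 1 in place of 16 the Crip1 differences were 5.33 and 6.65, and with 64 they were 4.08 and 5.58. Mcub was at place 10 and 26 with a pseudocount of 1 and at place 18 and 29 with 64. In all 6 of these comparisons the groups did not overlap. Of all probesets tested, 22.4% had every 10 mM culture above every water culture at 24 h and 20.4% had so at 48 h, and since the choice of the genes rests on these differences nothing is read from the count.

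In water, all 10 Crip1 signals, 8 of 10 for Mcub and 7 of 10 for Cd24 lay under the 30th percentile of their own array. At 0.5 mM this held for 9 of 10 Crip1 signals, 9 of 10 for Mcub and 6 of 10 for Cd24, and at 10 mM for none. Probesets were tested if their mean over all arrays reached the 30th percentile, 7.39 on the log2 scale. Crip1, at 8.06, Cd24, at 8.67, and Mcub, at 7.67, passed only through the 10 mM arrays: without those 10 arrays their means were 6.26, 7.04 and 6.34, below a level of 7.35 for the same percentile. The nearest member to the limit in water was Cd24 at 48 h, at 7.36.

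A passage from dim to bright was uncommon on this array. Of 8856 probesets under 7.39 in water at both times, 116 reached the median level of all probesets, 8.60, at 10 mM at both times, whether or not they passed the test filter. Cd24, Crip1 and Mcub were all among these 116, of which 90 carried 1 gene symbol. The 3 genes were picked for rises of this kind, so nothing is read from their membership or their places. Within the 116, Cd24 had the rise number 3 at 24 h and number 7 at 48 h, Crip1 number 5 and number 2, and Mcub number 17 and number 28. The median rise of the 116 was 2.89 at 24 h and 2.65 at 48 h. None of the 116 reached 8.60 at 0.5 mM at either time, and 78 stayed under 7.39 there at both times. In the other direction, 18 of 14580 probesets at or over 8.60 in water at both times fell under 7.39 at 10 mM at both times.

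**Figure D2:**
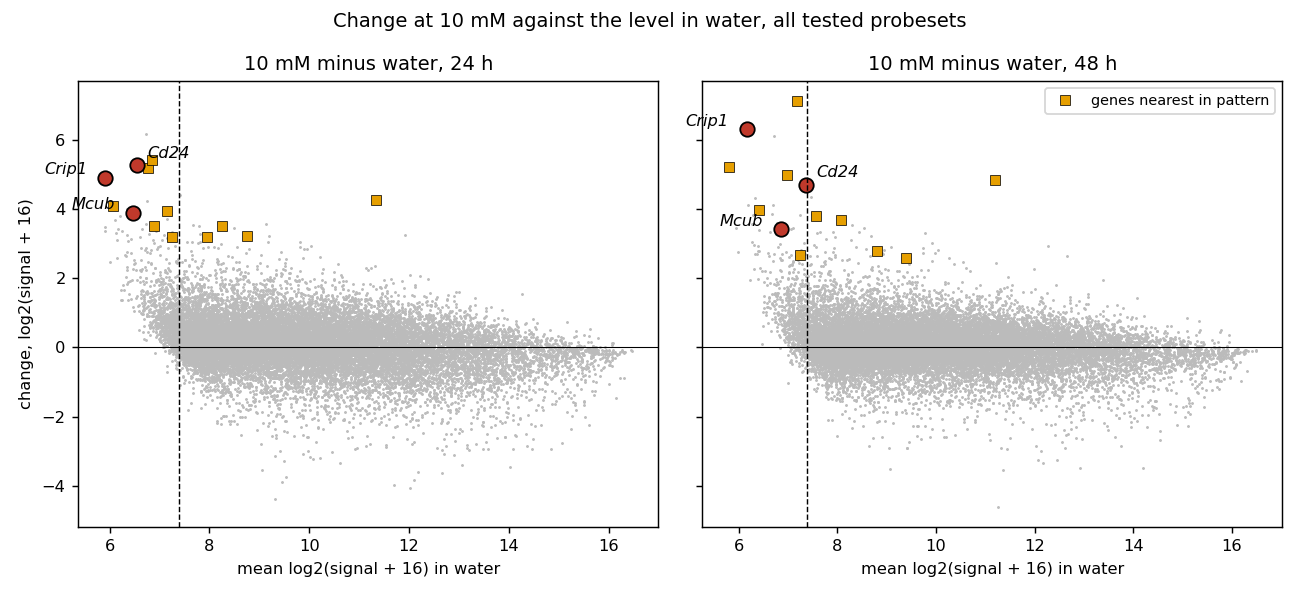
Difference between 10 mM and water (vertical axis, log2(signal + 16)) against the mean level in water (horizontal axis) for the 21729 tested probesets at 24 h and 48 h; circles are Cd24, Crip1 and Mcub, squares are the genes nearest to them in pattern, and the dashed line is the filter level of 7.39. The 3 genes lie left of the line, with rises of 3.42 to 6.31; the empty lower left corner follows from the filter, which dim probesets passed only by rising.

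The time course at 10 mM differed in its values from gene to gene. The 48 h minus 24 h difference within 10 mM was 1.66 on the log2 scale for Crip1, a signal ratio of 3.20. All 5 Crip1 cultures at 48 h lay above all 5 at 24 h, as did those of 8.5% of all probesets tested. For Cd24 the difference was 0.25, and for Mcub it was −0.09, and for both the 48 h and 24 h cultures overlapped. These values share the 10 mM arrays with the choice of the genes and were not tested.

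The values at 0.5 mM are also given without a test, since the water arrays they are set against took part in the choice of the genes. At 24 h the Crip1 signal was 97.4 ± 50.2 at 0.5 mM against 45.8 ± 14.5 in water (SD, n = 5 each), a log2 difference of 0.82 ± 0.22 (SE from the limma fit). The groups did not overlap, with 61.3 as the lowest value at 0.5 mM and 59.9 as the highest in water, as was so in that direction for 7.66% of probesets, and nothing is read from this. All but 1 of these 10 signals lay under the 30th percentile of their array. With signals under that percentile raised to it, the difference was 0.23.

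The 0.5 mM and water cultures of Cd24 and Mcub overlapped at 24 h. Cd24 averaged 84.1 ± 54.3 at 0.5 mM against 84.3 ± 39.9 in water, a log2 difference of −0.08 ± 0.31. Mcub averaged 82.5 ± 70.8 at 0.5 mM against 96.8 ± 69.9 in water, a difference of −0.16 ± 0.44.

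At 48 h all 3 genes overlapped between 0.5 mM and water. Crip1 averaged 60.8 ± 11.6 at 0.5 mM against 55.7 ± 4.3 in water, a log2 difference of 0.09 ± 0.22. Cd24 averaged 216 ± 58.2 at 0.5 mM against 156 ± 51.8 in water, a difference of 0.46 ± 0.31. Mcub averaged 39.8 ± 23.9 at 0.5 mM against 102 ± 19.8 in water, a difference of −1.15 ± 0.44. Its highest culture at 0.5 mM, at 80.2, was the only one inside the water range of 69.3 to 119. With dim signals raised to the 30th percentile the Mcub difference was 0.03, of the opposite sign.

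The 0.5 mM minus water difference at 48 h, less that at 24 h, was −0.74 ± 0.31 for Crip1, 0.55 ± 0.44 for Cd24 and −0.99 ± 0.62 for Mcub on the log2 scale.

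Time within 0.5 mM was tested, since the choice of the genes used neither of these groups. The limma test is still not free of that choice, because its filter and its pooled error drew on the 10 mM arrays. Cd24 was at 216 ± 58.2 at 48 h against 84.1 ± 54.3 at 24 h, both near the dim end of the arrays. The log2 difference was 1.37 ± 0.31 (limma adjusted p = 0.00407), every 48 h culture was above every 24 h culture, and 3.87% of all probesets were separated in that way. Cd24, Crip1 and Mcub entered the tested set only through their 10 mM arrays. The limma standard error and p also pool the spread of all 6 groups, the 10 mM groups included. On the log2 scale the Cd24 SD was 0.861 at 24 h and 0.347 at 48 h at 0.5 mM. At 10 mM it was 0.155 and 0.256, so the pooled error is not that of the groups compared. With no filter on dim probesets the limma adjusted p was 0.00645. An exact two-sided permutation test of the 10 arrays at 0.5 mM alone gave its smallest possible p of 0.00794. With only the 0.5 mM groups fitted Cd24 did not reach the filter. With signals under the 30th percentile raised to it, the Cd24 difference was 0.22 and did not pass (adjusted p = 0.292). Crip1 differed by −0.49 ± 0.22 (adjusted p = 0.135) and Mcub by −0.60 ± 0.44 (adjusted p = 0.367), without passing. Of all probesets 15.1% passed in either direction.

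In water the 48 h minus 24 h differences, again without a test, were 0.82 ± 0.31 for Cd24, 0.25 ± 0.22 for Crip1 and 0.39 ± 0.44 for Mcub, and the cultures of both times overlapped for each gene.

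Among other listed genes of mitochondrial calcium uptake, more fell than rose at 10 mM. Mcu, the pore subunit itself, had signals of 2282 to 2445 at 10 mM against 1794 to 2626 in water at 24 h, and its log2 difference was 0.13 ± 0.09 (limma adjusted p = 0.265). At 48 h Mcu was at −0.02 ± 0.09 (adjusted p = 0.877). Of the 13 genes of mitochondrial calcium uptake that were tested, Mcu included and Mcub left out, of 14 listed, 1 was higher and 7 were lower at 24 h, and 2 were higher and 8 lower at 48 h. Over all 11604 genes tested, 31.1% were higher and 25% lower at 24 h, and 27.6% were higher and 22.3% lower at 48 h. The median change of the list was −0.21 at 24 h and −0.26 at 48 h, beside 0.07 and 0.03 for all genes.

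Mcur1, an assembly factor of the uniporter, fell most in this list. Its signal was 2188 ± 146 at 10 mM against 6052 ± 568 in water at 24 h, a log2 difference of −1.46 ± 0.08 (limma adjusted p = 2.43e-15), and at 48 h the difference was −1.06 ± 0.08. Smdt1, the small subunit that links the pore to its gatekeepers, fell, by log2 differences of −0.54 at 24 h and −0.59 at 48 h. Micu2, a gatekeeper that senses calcium, fell (−0.52 and −0.67), as did Letm1, an inner-membrane cation exchanger (−0.87 and −0.39). Spg7, a subunit of a protease that processes the Smdt1 product, fell too (−0.37 and −0.46). Slc8b1, the exchanger that carries calcium out of the matrix, rose by 0.60 and by 0.44. Micu3, another gatekeeper, changed by 0.17 at 24 h without passing and rose by 0.39 at 48 h. The Micu2 and Spg7 calls of 24 h were lost when all probesets of a gene were averaged.

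Several proteins with LIM domains, the zinc-binding fold that makes up Crip1, rose at 10 mM, and others fell. Of 21 tested genes of this list, out of 25 listed, 10 were higher and 4 lower at 24 h, and 9 were higher and 3 lower at 48 h. Over all genes 31.1% were higher and 25% lower at 24 h, and 27.6% and 22.3% at 48 h. The median change was 0.26 at 24 h and 0.10 at 48 h, again beside 0.07 and 0.03 for all genes. Crip2, the nearest relative of Crip1 among the genes tested, was bright in every group. Its signal ran from 6040.3 to 6811 at 10 mM against 3541 to 3950.1 in water at 24 h, and it rose by 0.78 ± 0.07 at 24 h and by 0.75 ± 0.07 at 48 h (limma adjusted p = 1.87e-10 and 5.57e-10). At 0.5 mM Crip2 also rose, by 0.24 at 24 h (adjusted p = 0.0165) and by 0.41 at 48 h (adjusted p = 0.00012).

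Csrp2, a relative built from paired LIM domains, had the largest rise of the list at 24 h, with 3226 ± 304 at 10 mM against 431 ± 41.3 in water. Its log2 difference was 2.86 ± 0.12 at 24 h and 2.69 ± 0.12 at 48 h, and at 0.5 mM it was 0.05 and 0.06 without passing. Csrp1, of the same family, rose by 1.06 at 24 h and by 0.49 at 48 h. Pdlim7, which tethers kinases to actin filaments, rose by 2.43 ± 0.41 and by 2.59 ± 0.41. Fhl3 rose by 2.28 and by 1.57, and Tes, a focal adhesion protein, by 1.33 and by 0.74. Lims2, an adaptor of integrin-linked kinase, fell (−1.77 and −1.37), as did Pdlim2, a PDZ and LIM domain adaptor (−1.51 and −1.56). Lasp1, an actin-binding protein, fell as well (−0.95 and −1.02). Limk2, a kinase of cofilin, fell at 24 h, by a difference of −0.70, and did not pass at 48 h, at −0.14. The rise of Crip1, 4.90 at 24 h and 6.31 at 48 h, was outside the range of this list. Crip1 was chosen for a large rise, so nothing is read from this. Crip3 was not analysed here. Limk1 and Csrp3 were under the filter and not tested. Mean log2 levels of Limk1 were 8.44 at 10 mM and 5.83 in water at 24 h, and 7.65 and 5.84 at 48 h. Those of Csrp3 were 6.46 and 7.44 at 24 h, and 6.71 and 7.46 at 48 h.

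**Figure D3:**
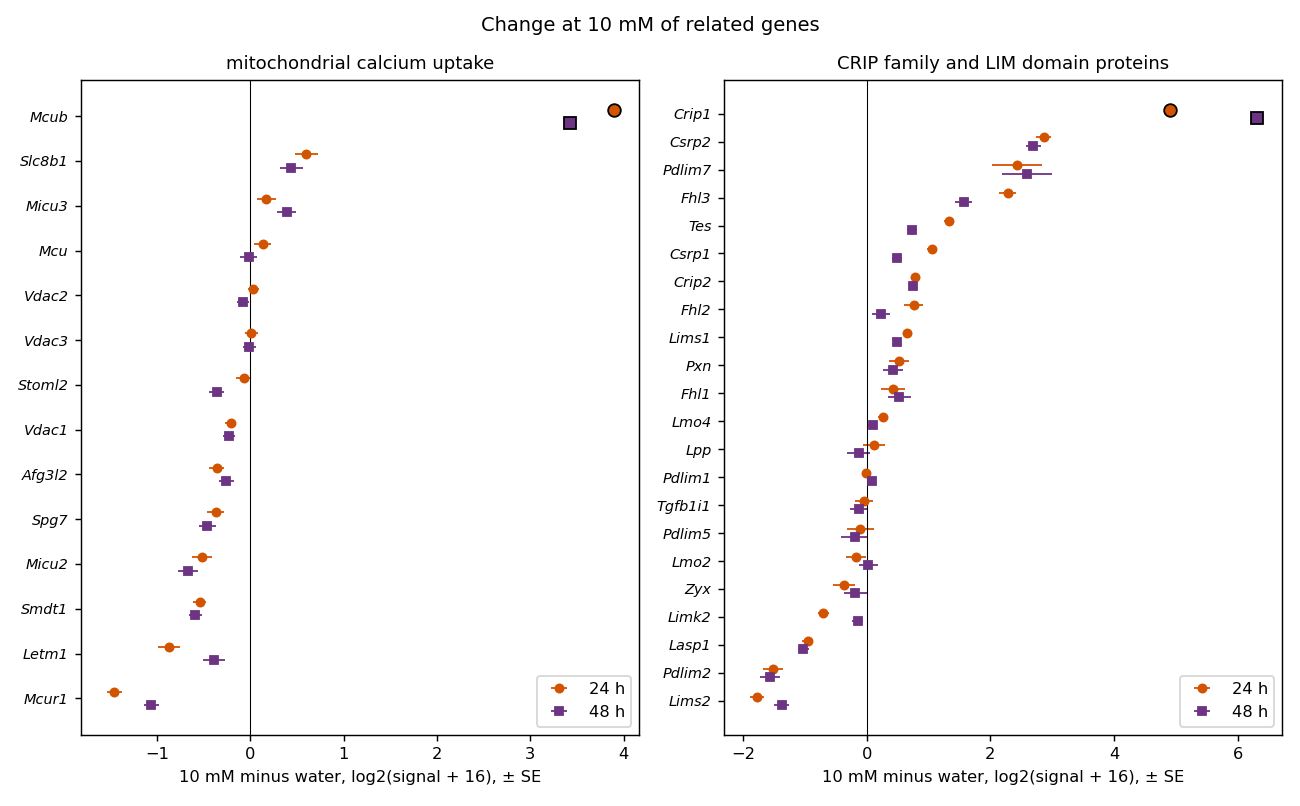
Difference between 10 mM and water on the log2(signal + 16) scale with its standard error for the tested genes of mitochondrial calcium uptake (left) and of the LIM domain list (right), circles for 24 h and squares for 48 h; Mcub and Crip1 are drawn at the top without error since they were chosen on this difference. Mcu lies at 0.13 and −0.02 beside Mcub at 3.90 and 3.42, and Crip2 at 0.78 and 0.75 beside Crip1 at 4.90 and 6.31.

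Other surface proteins with the GPI anchor of Cd24 were split in direction. Of 16 tested out of 20 listed, 4 were higher and 5 lower at 10 mM at 24 h, and 5 were higher and 4 lower at 48 h, with median changes of 0.08 and 0.02. Over all genes 31.1% were higher and 25% lower at 24 h and 27.6% and 22.3% at 48 h, with medians of 0.07 and 0.03, so nothing particular to this list is read from its counts. Prnp, the cellular prion protein, rose by 1.97 ± 0.06 at 24 h and by 1.46 ± 0.06 at 48 h, with 20911 ± 1241 at 10 mM against 5335 ± 331 in water at 24 h (limma adjusted p = 1.41e-22). Plaur, the urokinase receptor, rose by 1.59 and by 1.13, Cd55, which blocks complement on the cell surface, by 1.14 and by 1.40, and Reck, an inhibitor of matrix metalloproteinases, by 0.93 and by 1.04. Cd14, the co-receptor for bacterial lipopolysaccharide, fell (−2.06 and −1.97). Cd48, a leukocyte surface protein, fell (−0.95 and −0.97), and its call at 48 h was lost under the floor (adjusted p = 0.067). Efna1, a ligand of Eph receptors, fell (−0.56 and −0.66), and its call at 24 h was lost with all its probesets averaged. Gpc4, a heparan sulphate proteoglycan, was lower at 24 h (−0.55) and at 0.02 at 48 h without passing. At 0.5 mM Gpc4 fell at both times (−1.27 and −1.29). Ly6e fell at 48 h (−0.62) and did not pass at 24 h, at −0.31.

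Among markers of biliary and progenitor cells, the liver cells in which Cd24 is best known, 6 of 11 tested, out of 18 listed, were lower at 10 mM and 2 higher at each time. The median changes were −0.24 at 24 h and −0.54 at 48 h, where all genes had 0.07 and 0.03. Of all genes, 31.1% were higher and 25% lower at 24 h, and 27.6% were higher and 22.3% lower at 48 h. Of the 11 hepatocyte markers, 9 were lower and 0 higher at 24 h, and 4 were lower and 1 higher at 48 h. Epcam, an adhesion protein of biliary and progenitor cells, was at 6477 ± 359 at 10 mM against 7629.5 ± 710.2 in water at 24 h and at 5384 ± 617 against 10993 ± 715 at 48 h. The log2 differences were −0.23 ± 0.07 and −1.03 ± 0.07 (limma adjusted p = 0.00689 and 2.35e-13). Cldn7, a tight junction protein, fell, by log2 differences of −2.58 and −2.52. Itga6, a laminin receptor subunit, fell (−1.01 and −0.53), as did Afp, the fetal serum protein (−0.80 and −0.62). Krt8 and Krt18, simple epithelial keratins counted in this list, fell too (−0.83 and −0.72, and −0.65 and −0.54). In water at 24 h these keratins averaged 58423 and 45208, against 160 for Krt19. Their falls are therefore not read as particular to biliary or progenitor cells, though both keratins are counted among the 6 lower genes and in the medians. Krt23 rose by 1.10 and by 1.17. Prom1, a membrane protein of progenitor cells, rose by 0.46 (adjusted p = 0.0355) and by 0.56 (adjusted p = 0.0114), and neither call held under quantile normalization (adjusted p = 0.223 and 0.0522). The 24 h call of Prom1 was also lost with no filter (adjusted p = 0.0502), without 3 arrays of high actin ratio (adjusted p = 0.0514) and with any of 6 single arrays left out, and the 48 h call without water replicate 5 (adjusted p = 0.0644). Krt19, a biliary keratin, was under the filter, with mean log2 levels of 6.47 at 10 mM and 7.39 in water at 24 h. Sox9 was not analysed here.

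At 0.5 mM the 4 lists gave fewer calls than at 10 mM, as did all genes. The lists held 13 tested genes of mitochondrial calcium uptake, 21 of the LIM domain list, 16 of the GPI list and 11 of the biliary list. In mitochondrial calcium uptake, 1 gene was higher and 2 lower at 24 h and 3 were higher and 2 lower at 48 h. The LIM domain list had 3 higher and 3 lower, then 4 higher and 2 lower, the GPI list 1 higher and 2 lower, then 2 higher and 2 lower, and the biliary list 4 higher and 1 lower, then 2 higher and 1 lower. Over all genes, 28.8% passed in either direction at 24 h and 26% at 48 h. At 10 mM 31.1% of all genes were higher and 25% lower at 24 h, and 27.6% and 22.3% at 48 h. The fewer calls at 0.5 mM are therefore not read as particular to the lists. The 10 mM effect itself differed between 48 h and 24 h for 9 of the 61 tested genes of the 4 lists, against 12.8% of all genes.

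Cell identity was read from marker lists. All 11 measured hepatocyte markers of 12 listed were over the median level in every group, and their summed signal was 420983 to 494026 at 10 mM against 554672 to 693134 in water at 24 h and 460773 to 527946 against 544729 to 622128 at 48 h. The cholangiocyte sum over 5 of 6 markers was 6381 to 7275 at 10 mM against 7197 to 8743 in water at 24 h, and 4967 to 6585 against 10578 to 12264 at 48 h. Epcam alone made up 94.0% to 97.4% of this sum on the 10 mM arrays and 92.7% to 97.3% on the water arrays, and the other 4 markers averaged at most 146 and 183 per group. The sum over 8 of 10 Kupffer cell and macrophage markers was 2046 to 2659 at 10 mM against 3570.0 to 4681 in water at 24 h, and 1750.0 to 2386 against 2876 to 3463 at 48 h. The sum over 8 of 10 lymphocyte and granulocyte markers overlapped, at 1118 to 1453 at 10 mM against 853 to 1338 in water at 24 h and 1054 to 1302 against 1229 to 1486 at 48 h. The stellate sum over 8 of 8 markers was 2773 to 3243 at 10 mM against 3742 to 4323 in water at 24 h and 2870.0 to 3527 against 3855 to 4360.0 at 48 h, and the endothelial sum over 6 of 7 was 962 to 1395 against 1248 to 2141 and 986 to 1581 against 1139 to 1620.0. No marker was at 0 on all arrays of a group. The part of other cell types in the signals of Cd24, Crip1 and Mcub was not tested. Fewer cells of a type and less RNA per cell cannot be told apart in such samples.

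By the distance between 6 group means, each taken relative to water, the genes nearest to the members were also far higher at 10 mM. This follows from the measure, since only a gene with a similar rise can lie near. Some rose from dim and some from brighter levels in water. Hamp, Ndrg4, C2h4orf46 and Pkib lay over the filter level of 7.39 in water at both times. Among 11471 genes, the nearest to Cd24 were Soat1, which esterifies cholesterol, at a distance of 1.32, Naaa, an acid amidase, at 1.64, Hamp, which encodes hepcidin, at 1.69, Nefm, a neurofilament subunit, at 1.75, and Armcx2 at 1.79. Soat1 was higher by 5.18 at 24 h and by 5.00 at 48 h, from levels of 6.76 and 6.97 in water. Hamp differed in its start, with 11.34 and 11.20 in water and differences of 4.27 and 4.83.

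Nearest to Crip1 was Acot1, an acyl-CoA thioesterase, at 1.21, followed by Soat1 at 1.39, Hamp at 1.79, Cd24 itself at 1.94 and Armcx2 at 2.27. Acot1 was higher by 5.42 at 24 h and by 7.12 at 48 h, so its value, like that of Crip1, was larger at the later time. The same held for Armcx2 (3.51 and 5.21) and Hamp (4.27 and 4.83), but not for Soat1 (5.18 and 5.00) or Cd24 (5.28 and 4.71). Nearest to Mcub were Ndrg4 at 1.18, Tafa4 at 1.19, Nefm at 1.22, C2h4orf46 at 1.26 and Pkib, an inhibitor of protein kinase A, at 1.34. Nefm was higher by 3.95 at 24 h and by 3.80 at 48 h, from 7.15 and 7.57 in water. The members lay 1.94 (Cd24 and Crip1), 2.66 (Cd24 and Mcub) and 3.40 (Crip1 and Mcub) apart. Pearson's r over the same 6 means picked other genes, such as Ccdc186 for Cd24 (r = 0.9994, differences of 0.76 and 0.71), and of the genes named by distance only Acot1 was also among the 5 named by r for the same member.

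**Figure D4:**
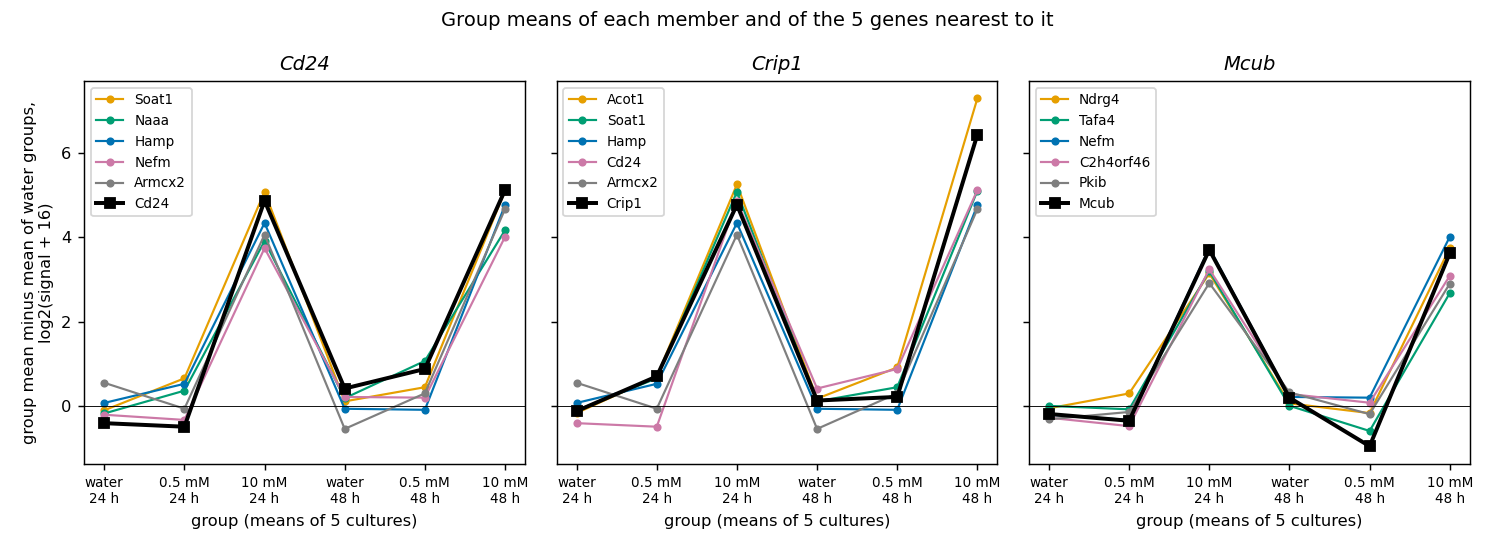
Group means of 5 cultures relative to the mean of the water groups (vertical axis, log2(signal + 16)) over the 6 groups, for each member (black squares) and the 5 genes at the smallest distance from it (coloured circles). Values lie between −0.55 and 0.55 in water, between −0.96 (Mcub) and 1.07 (Naaa) at 0.5 mM, and between 2.67 and 7.29 at 10 mM; Crip1 and Acot1 are highest at 48 h.

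The 3 genes lie on different chromosomes, Cd24 on 20, Crip1 on 6 and Mcub on 2, and the protein-coding genes beside them in RefSeq order did not all move in their direction. Taking 3 genes on each side, 18 places in all, 14 genes were tested, of which 3 were higher and 8 lower at 10 mM at 24 h, and 4 were higher and 6 lower at 48 h. Their changes ran from −1.15 to 1.91 at 24 h and from −0.91 to 1.99 at 48 h. These lie below the rises for which the 3 genes were chosen, and nothing is read from that. Over all genes, 31.1% were higher and 25% lower at 24 h and 27.6% and 22.3% at 48 h. Casp6, an effector caspase next to Mcub, rose by 1.91 ± 0.14 and by 1.48 ± 0.14 (limma adjusted p = 6.43e-13 and 3.15e-10). Sec24b, a vesicle coat protein on the other side of Mcub, changed by 0.20 (adjusted p = 0.189) and rose by 0.30 (adjusted p = 0.0498). Crip2 lies next to Crip1, and Tmem121, further along, rose by 1.31 ± 0.40 and by 1.99 ± 0.40. Mtres1, next to Cd24, was at −0.12 and 0.26 without passing.

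Across the series, the 30 arrays had been scaled to a common level before deposit, with trimmed means of 1500.5 to 1500.7, so a change of most genes in 1 direction would not show. Replicates correlated at a median r of 0.96. On 3 arrays the actin control probesets had a 3′ over 5′ ratio above 2 in log2: replicates 3 and 4 at 0.5 mM and 48 h, and replicate 3 in water at 24 h. The call of Cd24 over time within 0.5 mM held without these 3 arrays (limma adjusted p = 0.0229).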

How the data were processed

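Each of 30 rat hepatocyte cultures gave total RNA for 1 array with biotin label, per the labels' protocols. The authors deposited signal intensity on a linear scale, made with MAS5 per the submitters' processing notes; no version or setting is given in the sources used here. The deposited scaling was kept. Of 31099 probesets, 57 controls were left out; 20826 carried 1 symbol, 436 several and 9780 none, and 20758 matched the RefSeq gene table (GRCr8). Values were analysed as log2(signal + 16), a scale on which dim probesets change less than in truth. The 21729 probesets whose mean reached the 30th percentile (a signal of 152) were fitted over 6 groups with limma 3.58.1 in R 4.3.3 (lmFit, eBayes with a trend, 24 residual degrees of freedom), two-sided, with Benjamini-Hochberg adjustment and calls at 0.05, and checked on simulated data. Of several probesets of a gene the brightest on average was used (11604 genes tested). Tables and figures were made with Python 3.11.15.

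The members, lists and tests were chosen with earlier results of these data known. Named were the members, up to 4 called genes per direction and time of each list, 8 fixed relatives with a probeset, and the 5 nearest genes per member. The choice of chromosome neighbours and of the dim-to-bright class came after the values were seen. The members were not tested in contrasts with water, whose arrays took part in their choice. Groups of 5 cultures limit the precision. The labels give no replicate numbers. Arrays were numbered in runs of 6, and deviations from group means correlated at a median r of 0.003 within runs, so the numbers were not taken as pairs. Alternatives were pseudocounts, a floor, quantile normalization, filters, no trend, array weights, the groups compared alone, the mean over probesets, a block, an exact permutation test (within 0.5 mM only), and leaving out arrays.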

Additional observations from a re-analysis of the deposited data

Results flagged for a closer look

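In the groups of 5 cultures of the 3 genes, 2 of 18 held a culture far from the other 4, where chance alone gives about 1 in 20. Replicate 2 at 10 mM and 48 h had the lowest Cd24 signal, 3116.8, with the nearest culture at 4435.6; without it the 10 mM minus water difference stayed within 4.48 to 4.82, the range over all arrays left out. Replicate 4 in water at 24 h had the lowest Crip1 signal, 21.2, with the nearest at 48.4. That array was also the lowest of its group for Cd24, at 29.6, and for Mcub, at 9.6. Replicate 2 at 10 mM and 48 h was also the lowest of its group for Crip1, at 4349.7, but not for Mcub. The 3 genes share their arrays, so the 18 groups are not independent.

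For 9 of the 61 tested related genes the 10 mM effect differed between 48 h and 24 h by the interaction test in limma. The share over all genes was 12.8%, so nothing particular to the related genes is read from the count. The effect at 48 h minus that at 24 h was negative for Epcam (−0.80 on the log2 scale), Fhl3 (−0.71), Tes (−0.59), Csrp1 (−0.57) and Prnp (−0.51). It was positive for Gpc4 (0.57), Limk2 (0.56), Itga6 (0.48) and Mcur1 (0.40), all of which were lower at 10 mM at 24 h.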

How the results depend on the processing

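Over 43 results and 478 alternatives other than leaving out an array, 455 kept their direction, call or size and 23 did not; of 460 values with 1 array left out, 453 did. For the members against water, which were not tested, a value counts as kept if it moved by less than the largest SD between cultures among the groups compared, whatever its sign. Cd24 at 0.5 mM against water at 24 h thus ran from −0.258 to 0.215 with every value counted as kept. Signals near the dim end limit the 0.5 mM results. With dim signals raised to the 30th percentile of their array, Crip1 at 0.5 mM against water was 0.228 at 24 h, Mcub 0.034 at 48 h, the Crip1 difference of effects −0.194, and Cd24 at 48 h against 24 h within 0.5 mM 0.223. Under the same floor the 10 mM rise of Cd24 at 24 h was 4.425, that of Crip1 3.423 at 24 h and 5.017 at 48 h, and that of Mcub 2.829 at 48 h. A pseudocount of 1 gave Crip1 5.325 and 6.645, and a pseudocount of 64 gave Crip1 4.080 and 5.581 and Mcub 2.976 at 48 h. The floor and the pseudocounts act on dim signals by construction. The permutation test was not run for contrasts with water. With only the groups compared, several members did not reach the filter at 0.5 mM and in water and have no value.

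Probesets called over time within 0.5 mM numbered 3284, 1032 with only those groups fitted, 1077 without the 3 arrays of high actin ratio, and 1765 to 4604 with 1 array left out (lowest without replicates 3, 4 or 5 of 48 h, at 1765, 1875 and 2168). In water over time they numbered 1688, and 1049 with only those groups. With probesets averaged, mitochondrial calcium uptake gave 5 calls at 10 mM at 24 h, against 8, and 2 at 0.5 mM at 48 h, against 5, and the GPI list gave 5 at 10 mM at 24 h, against 9. The GPI list gave 5 at 48 h with a 50th-percentile filter, against 9, and 5 at 0.5 mM at 24 h with only those groups, against 3. The biliary list at 0.5 mM at 48 h gave 3, but 1 without a trend and 1 without the 3 arrays, and 0 to 3 with 1 array left out (0 without water replicate 3, and 1 without water replicate 4 or 5 or replicate 3 at 0.5 mM). The cause was not tested. Crip1 and Mcub did not pass the 50th-percentile filter and have no value there.

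For 34 named related genes, 788 of 798 alternatives kept direction and call, with 8 calls lost, 1 gained and 1 value of the opposite sign; of 680 values with 1 array left out 670 did, with 7 calls lost, all of Prom1, and 3 of the opposite sign. At 48 h, where neither was called, Mcu was 0.050 with probesets averaged and −0.065 to 0.013 with 1 array left out, and Gpc4 −0.024 to 0.046. The labels give no replicate numbers, but each run of 6 array numbers holds every group: with this replicate block Cd24 over time within 0.5 mM was 1.369 (limma adjusted p = 0.00535), and all 43 results kept their direction, call or size.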
